A study of Mus musculus with 6 samples.

Results

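Immediate early genes are genes that cells transcribe within minutes of a stimulus without first making new protein, and 10 of them are described here in the intestinal epithelium of mice given the yeast Candida albicans. They were chosen by name: Fos, Fosb, Jun, Junb, Egr1, Atf3, Dusp1, Ier2, Klf4 and Zfp36. All 10 were found among the 54532 genes of the count table, and all 10 passed the filter on low counts that left 16313 genes for testing. The mice of both groups were labelled Apoe-/-, a genotype made to lack apolipoprotein E and used to study atherosclerosis. They had been gavaged with Candida albicans or with phosphate-buffered saline (PBS) every 3 days for 2 weeks, after which the epithelium was collected. PolyA RNA was sequenced in 3 libraries per group. The sources used here do not give sex, age, gut segment, the number of mice per library or how the epithelial layer was isolated. The p-values therefore cover the spread among these libraries only, which may be partly technical. The comparison addresses whether repeated gavage with the yeast changes the level of early response genes in this tissue.

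Totals were 21406930 to 24891735 counts per library. Levels are given in CPM, a count relative to library size after TMM normalization, which corrects for differences in composition between libraries. All 10 general epithelial markers examined were counted in every library, with a summed level of 13104 to 21452 CPM over the PBS libraries and 19871 to 22985 CPM over the treated ones. The adhesion protein gene Epcam had 1500 to 2318 CPM in PBS and 3305 to 3743 CPM after the yeast, and the brush border gene Vil1 1486 to 3000 and 3912 to 5237 CPM. Of the 10, 4 were higher in every treated library than in every PBS library, where 17.6% of all genes were. The keratin gene Krt18 alone was lower in every one, at means of 516 CPM in PBS and 192 CPM after the yeast, where 18.1% of all genes were. By mean, 4 of the 10 were lower after the yeast, Krt19 (2378 and 1560 CPM) and Elf3 (379 and 297 CPM) among them. The part of these markers in the results below was not tested. Apoe itself was counted in every library, at 59.2 to 106 CPM in PBS and 51.8 to 76.0 CPM after the yeast, and a gene-level count does not show which part of the gene was altered. Smooth muscle markers were present too and varied widely, summing to 524 to 7055 CPM in the PBS libraries and to 206 to 1792 CPM in the treated ones.

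The products of these genes act within the first response of a cell to growth factors, stress or injury. Signals through mitogen-activated protein (MAP) kinases switch on Fos, Fosb, Jun and Junb, whose proteins pair through leucine zippers to form AP-1, a transcription factor that binds DNA as a dimer. Dusp1 and Zfp36 encode feedback inhibitors that inactivate MAP kinases and destabilise short-lived mRNAs. In the intestine AP-1 and EGR1 are known for roles in regeneration, and KLF4 for its part in goblet cell differentiation and in arresting the cell cycle. The same genes are known to rise when tissue is cut, warmed or dissociated.

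The stretches of DNA just upstream of the start of transcription are shown for Fos, Jun and Junb, since these AP-1 subunit genes carry much of the comparison and their promoters are the usual point of their regulation. Each is the 150 bases before the RefSeq start (GRCm38.p6), read 5′ to 3′ on the gene's strand. Capitals mark matches to TGACG (the core of the cAMP response element), TGACNTCA (its full form and the related site known from the Jun promoter) or TATAAA (the TATA box).
Fos (chr12:85473740-85473889, plus strand): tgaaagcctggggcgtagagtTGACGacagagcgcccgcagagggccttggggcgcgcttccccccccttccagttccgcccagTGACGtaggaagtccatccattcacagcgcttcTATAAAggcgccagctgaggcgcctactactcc
Jun (chr4:95052223-95052372, minus strand): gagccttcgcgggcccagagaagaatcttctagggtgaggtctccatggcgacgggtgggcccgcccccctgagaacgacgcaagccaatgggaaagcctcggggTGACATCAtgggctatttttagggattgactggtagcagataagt
Junb (chr8:84978749-84978898, minus strand): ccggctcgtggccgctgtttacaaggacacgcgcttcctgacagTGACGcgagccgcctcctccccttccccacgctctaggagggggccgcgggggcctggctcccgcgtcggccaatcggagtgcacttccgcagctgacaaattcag
RefSeq promoters were matched by symbol for 8 of the 10 genes, not for Egr1 and Ier2. On both strands, and with TGACG and TGACNTCA allowed to overlap, TGACG stood in 13.3% of the 32851 windows of this length, TGACNTCA in 5.7% and TATAAA in 7.57%. Of the 8, Fos held TGACG from base -129 and again from -66 and TATAAA from -33, Jun held TGACATCA from -45, and Junb held TGACG from -106, counted back from the start. TGACG also stood in Fosb from -60, in Atf3 from -7 on the other strand and in Dusp1, so that 5 of the 8 held it. Dusp1 held it within a full TGACGTCA from -143, Klf4 held none of the motifs searched, Zfp36 held the serum response factor's CArG box from -58 (0.916% of windows), and the AP-1 site TGANTCA (4.24% of windows) was in none of the 8. Only these 150 bases were searched, so a motif missing here may still stand farther upstream of the same gene. A match is a description of the letters, not evidence of binding.

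Most of the 10 genes had higher mean levels after Candida albicans, by 1.11 to 6.17 times, but none was called. By value, 9 of 10 had a positive log2 fold change (Candida albicans against PBS), where 39.5% of all genes did. The quasi-likelihood test of edgeR, adjusted by Benjamini-Hochberg over all genes, gave 0 of 10 an adjusted p under 0.05, and the same rule called 0% of all 16313 genes. Ier2 was the negative one. The median was 0.77 for the 10 genes and -0.16 for all genes tested. At an unadjusted p under 0.05, 4 were higher (Fosb, Jun, Junb and Zfp36) and 0 lower, where 13.4% of all genes were higher and 16.2% lower. At an adjusted p under 0.1 there was 1, Zfp36, where 12.6% of all genes passed. In Jun, Junb and Zfp36 every Candida albicans library was above every PBS library, 3 of 10 genes where 17.6% of all genes were separated in that direction, and 0 were separated in the other, where 18.1% of all genes were. In bulk tissue, more cells of a type and more RNA per cell cannot be told apart.

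The count of 0 depended on the test and on 1 library. The DESeq2 Wald test called 4 (Fosb, Jun, Junb and Zfp36, all higher), where it called 17.9% of all genes, and limma-voom called 0. Without PBS replicate 1, edgeR called Jun, Junb and Zfp36, with adjusted p values of 0.012, 0.045 and 0.038, where 15.7% of all genes were called. At an unadjusted p under 0.05 the count of 4 higher and 0 lower became 6 and 1 without that library. It was 2 and 0 without PBS replicate 2, PBS replicate 3, Candida albicans replicate 1 or Candida albicans replicate 2. Without Candida albicans replicate 3 it was 5 and 0. The counts over all genes moved too, from 2182 higher and 2645 lower of 16313 with all 6 libraries. Without PBS replicates 1, 2 or 3 in turn they were 3139 and 2482, 2006 and 2365, and 1846 and 1441. Without Candida albicans replicates 1, 2 or 3 they were 1470 and 3219, 1556 and 1600, and 1748 and 1600. These fits tested 16697 to 17279 genes.

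**Figure D1:**
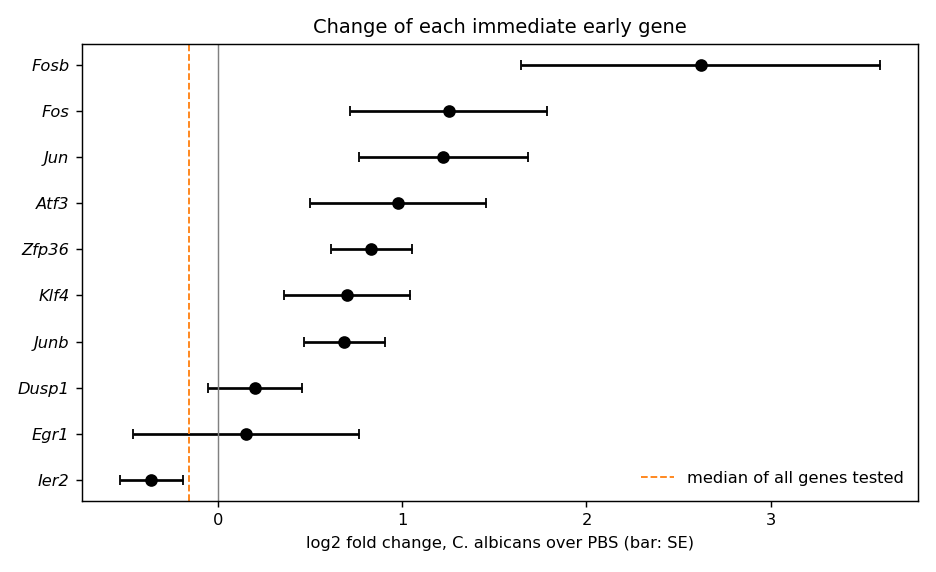
Log2 fold change of each immediate early gene, Candida albicans over PBS, with its standard error (n = 3 libraries per group); the dashed line is the median of all genes tested. Fosb has the largest value, 2.62, with the widest bar, 0.98, and Ier2 alone lies below 0, at -0.36.

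Jun and Junb, which encode the Jun partners of the AP-1 dimer, were higher in each of the treated libraries than in every PBS library. Jun (ENSMUSG00000052684, chromosome 4, 95049034 to 95052222, minus strand, mm10) had 105, 43.3 and 29.0 CPM in PBS replicates 1 to 3 and 147, 140 and 125 CPM in Candida albicans replicates 1 to 3. The Candida albicans libraries lay close together, and the PBS group was spread by 3.61 times with replicate 1 nearest to the treated libraries. The means were 59.0 ± 40.2 and 138 ± 11.3 CPM (SD, n = 3 each), a log2 fold change of 1.22 (SE 0.46, unadjusted p 0.035, adjusted p 0.14). Without PBS replicate 1 it was 2.04.

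Junb (ENSMUSG00000052837, chromosome 8, 84974484 to 84978718, minus strand) had 137, 124 and 80.2 CPM in PBS replicates 1 to 3 and 206, 175 and 167 CPM in Candida albicans replicates 1 to 3. The lowest treated library exceeded the highest PBS library by a margin smaller than the range within either group. The means were 114 ± 29.7 and 183 ± 20.5 CPM, a log2 fold change of 0.69 (SE 0.22, unadjusted p 0.017, adjusted p 0.11). Its annotated span overlaps the oppositely transcribed peroxiredoxin gene Prdx2 by 351 bases. Prdx2 had 2643 to 3320 counts per library, and since no source used here gives the strand setting of the counting, reads in the overlap could not be assigned with certainty. Jun and Zfp36 are overlapped by the antisense genes Junos and Gm44710, which had at most 32 and 7 counts in any library.

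Fos and Fosb, the Fos partners of AP-1, had the highest mean fold changes of the 10 genes, and in both the groups overlapped. Fos (ENSMUSG00000021250, chromosome 12, 85473890 to 85477273, plus strand) had 169, 154 and 61.6 CPM in PBS replicates 1 to 3 and 276, 491 and 149 CPM in Candida albicans replicates 1 to 3. Candida albicans replicate 3 lay below PBS replicates 1 and 2, and replicate 2 was 3.29 times as high as replicate 3. The means were 128 ± 58.2 and 305 ± 173 CPM, a log2 fold change of 1.25 (SE 0.54, unadjusted p 0.056, adjusted p 0.18). Without Candida albicans replicate 2 it was 0.74.

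Fosb (ENSMUSG00000003545, chromosome 7, 19302696 to 19310051, minus strand) had the lowest mean level in PBS, and its counts ran from 26 in PBS replicate 3 to 781 in Candida albicans replicate 2. Its levels were 4.99, 2.32 and 1.03 CPM in PBS replicates 1 to 3 and 11.1, 37.1 and 3.22 CPM in Candida albicans replicates 1 to 3. Here too Candida albicans replicate 3 lay inside the PBS range, while replicates 1 and 2 were above it. The means were 2.78 ± 2.02 and 17.1 ± 17.7 CPM, a log2 fold change of 2.62 (SE 0.98, unadjusted p 0.034, adjusted p 0.14). Without Candida albicans replicate 2 it was 1.37.

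Atf3, a stress-induced factor whose protein pairs with Jun proteins, resembled Fos. Atf3 (ENSMUSG00000026628, chromosome 1, 191170296 to 191218039, minus strand) had 44.4, 31.0 and 21.6 CPM in PBS replicates 1 to 3 and 56.0, 105 and 30.5 CPM in Candida albicans replicates 1 to 3. The treated libraries 1 and 2 were above the PBS range and replicate 3 within it. The log2 fold change was 0.98 (SE 0.48, unadjusted p 0.084, adjusted p 0.22), and 0.43 without Candida albicans replicate 2.

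**Figure D2:**
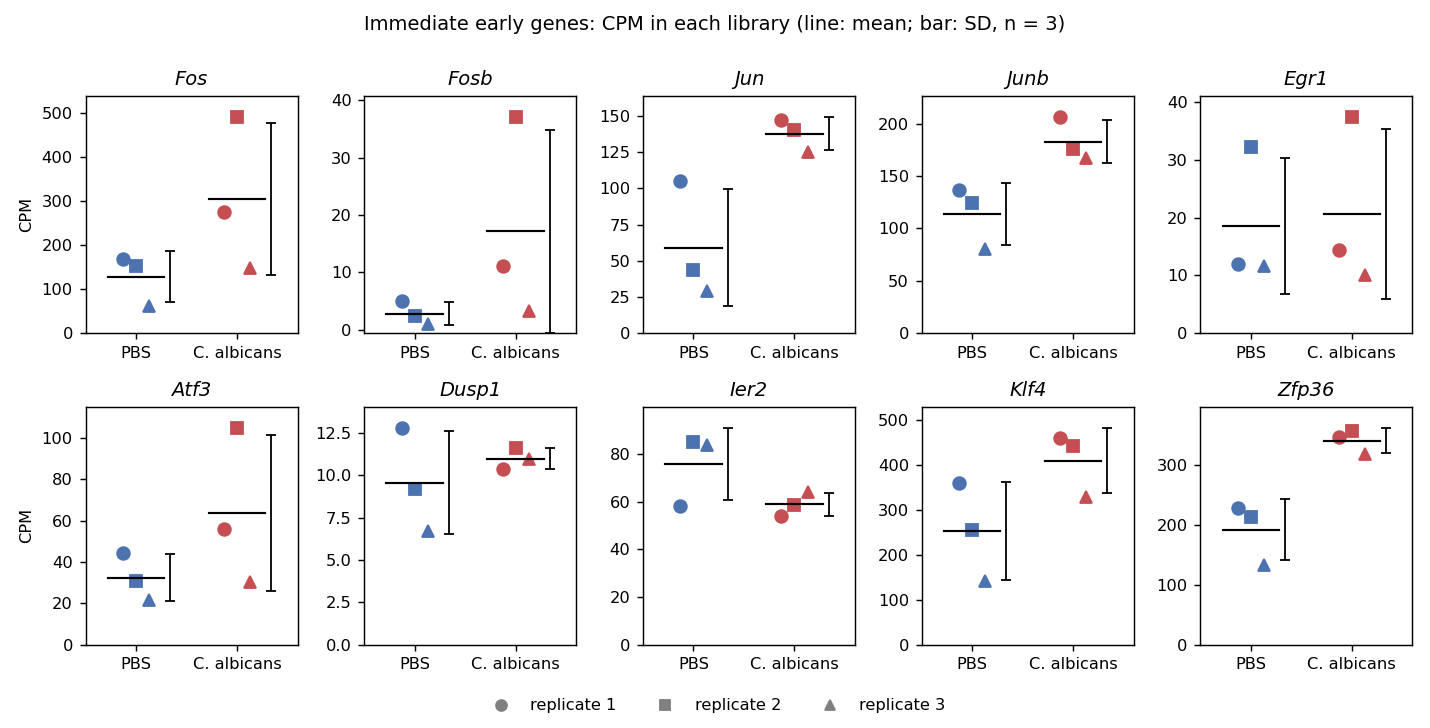
CPM of each of the 10 genes in each library (marker shape: replicate number; line: group mean; bar: SD, n = 3). The groups are separated for Jun, Junb and Zfp36 and overlap for the others; PBS replicate 3 is the lowest library in 8 of the 10 panels.

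Egr1 and Klf4 encode zinc finger transcription factors, and the 2 behaved differently. Egr1 (ENSMUSG00000038418, chromosome 18, 34859823 to 34864984, plus strand) had 11.9, 32.1 and 11.7 CPM in PBS replicates 1 to 3 and 14.5, 37.3 and 10.01 CPM in Candida albicans replicates 1 to 3. In both groups replicate 2 stood far above the other libraries, and the groups covered almost the same range. The log2 fold change was 0.15 (SE 0.61, adjusted p 0.88). It turned to -0.60 without Candida albicans replicate 2 and to -0.031 without PBS replicate 3, and was 0.86 without PBS replicate 2.

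Klf4 (ENSMUSG00000003032, chromosome 4, 55527143 to 55532466, minus strand) had 360, 255 and 141 CPM in PBS replicates 1 to 3 and 459, 442 and 327 CPM in Candida albicans replicates 1 to 3. Only Candida albicans replicate 3 and PBS replicate 1 crossed. The means were 252 ± 109 and 409 ± 71.4 CPM, a log2 fold change of 0.70 (SE 0.34, unadjusted p 0.083, adjusted p 0.22). It was 1.16 without PBS replicate 1 and 0.43 without PBS replicate 3.

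Among the genes of feedback control, Zfp36 had the lowest p of the 10 and Dusp1 had a small fold change. Zfp36 (ENSMUSG00000044786, chromosome 7, 28376784 to 28380253, minus strand) encodes tristetraprolin, which binds AU-rich elements and speeds the decay of cytokine and early response mRNAs. It had 228, 213 and 133 CPM in PBS replicates 1 to 3 and 346, 357 and 318 CPM in Candida albicans replicates 1 to 3. The treated libraries were within 1.12 times of each other and well above PBS. The means were 191 ± 50.9 and 340 ± 20.3 CPM, a log2 fold change of 0.83 (SE 0.22, unadjusted p 0.0076, adjusted p 0.089). By p it ranked 1390 among the 16313 genes.

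Dusp1 (ENSMUSG00000024190, chromosome 17, 26505590 to 26508519, minus strand), the nuclear phosphatase that removes phosphate from MAP kinases, had 12.8, 9.18 and 6.71 CPM in PBS replicates 1 to 3 and 10.4, 11.6 and 10.99 CPM in Candida albicans replicates 1 to 3. The treated libraries all lay inside the PBS range. The log2 fold change was 0.20 (SE 0.26, adjusted p 0.60), from 0.03 without PBS replicate 3 to 0.59 without PBS replicate 1, and it was -0.067 when libraries were scaled by their totals only.

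Ier2, which encodes a nuclear protein of the early growth factor response, was the exception in direction. Ier2 (ENSMUSG00000053560, chromosome 8, 84661331 to 84662852, minus strand) had 58.4, 85.1 and 83.8 CPM in PBS replicates 1 to 3 and 54.2, 58.6 and 64.0 CPM in Candida albicans replicates 1 to 3. PBS replicate 1 lay among the treated libraries, and the other PBS libraries were higher. The means were 75.8 ± 15.1 and 58.9 ± 4.95 CPM, a log2 fold change of -0.36 (SE 0.17, unadjusted p 0.073, adjusted p 0.20). It was -0.19 without PBS replicate 2 and -0.24 without PBS replicate 3.

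Within the Candida albicans group the 10 genes divided by how far the libraries were spread. In Fos, Fosb, Egr1 and Atf3 the highest treated library was 3.29, 11.5, 3.73 and 3.44 times the lowest, and in each of them replicate 2 was the highest, replicate 1 came next and replicate 3 was the lowest. In Jun, Junb, Dusp1, Ier2, Klf4 and Zfp36 the ratio was 1.12 to 1.40. Of the 11004 genes with 5 CPM or more in the higher group, 79.0% had a ratio under 1.5 within the Candida albicans group. A spread of 3 times or more was found in 6.20%, and the order of replicate 2 over 1 over 3 in 12.8%. Both together were found in 27 genes (0.245%), Fos, Fosb, Egr1 and Atf3 among them. Of 40 further early response and leucine zipper genes at that level, 4 were spread by 3 times or more, and 2 of these had that order. The median ratio over the 11004 genes was 1.23 in the Candida albicans group and 1.43 in PBS. This division was seen in the values, so it is a description with no test.

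In the PBS group replicate 3 was the lowest of all 6 libraries for 8 of the 10 genes, the exceptions being Egr1 and Ier2. Over the 11004 genes that library was the lowest for 24.8%. Candida albicans replicate 2 was the highest of all libraries for 5 of the 10 genes (Fos, Fosb, Egr1, Atf3 and Zfp36), where it was so for 8.21% of the 11004. The mean of the 10 genes' log2 CPM, each less its own mean over 6 libraries, was -0.001, -0.23 and -0.99 for the PBS replicates 1 to 3, and for those with Candida albicans 0.41, 0.89 and -0.08. Candida albicans replicate 3 stood between PBS replicates 1 and 2 on this summary.

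**Figure D3:**
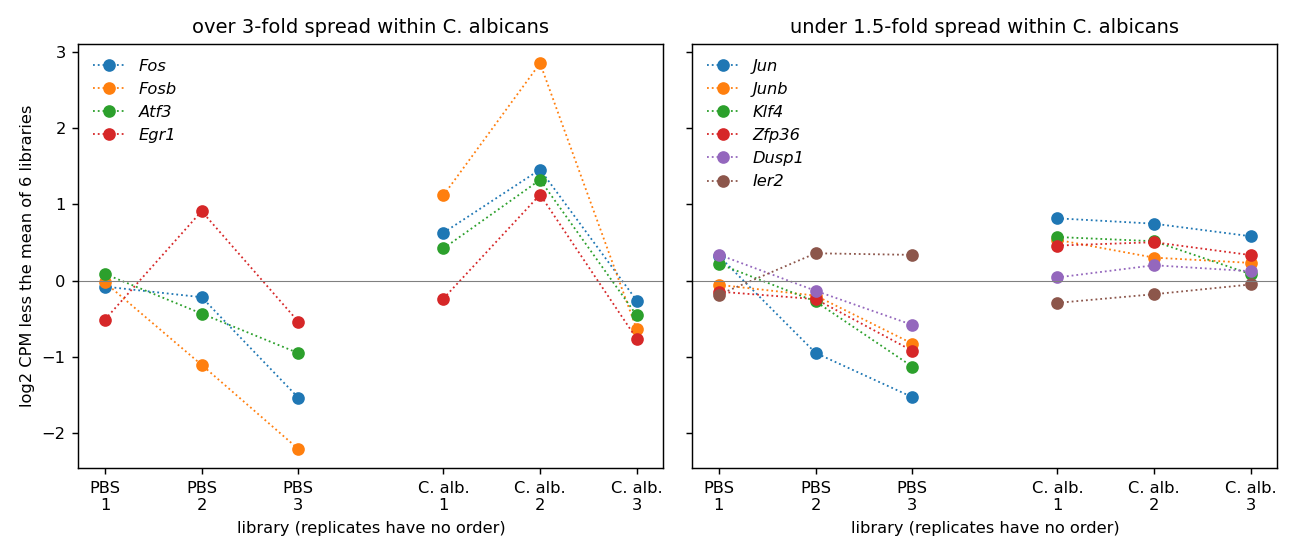
Log2 CPM of each gene less its mean over the 6 libraries; the left panel holds the 4 genes with an over 3-fold spread within the Candida albicans group, the right panel the other 6, and dotted lines join the points of 1 gene within a group only to guide the eye. In the left panel Candida albicans replicate 2 is above replicates 1 and 3 for every gene; in the right panel the treated libraries lie close together.

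Per length of gene (CPM per kilobase, using the lengths in the deposited table), Klf4 had the highest mean level and Fosb the lowest in both groups. In PBS the mean levels of Klf4, Zfp36, Fos, Ier2 and Junb were 82.7, 55.1, 54.5, 49.8 and 49.4 CPM per kilobase, and each neighbouring pair in this order had overlapping libraries. Jun (18.5 ± 12.6) and Atf3 (15.01 ± 5.33) followed below all libraries of Junb and overlapped each other. Egr1 (4.15) and Dusp1 (3.54) also overlapped, and Fosb (0.45) lay below every Dusp1 library. With Candida albicans the order of mean levels was Klf4 (134), Fos (130), Zfp36 (98.1), Junb (79.4), Jun (43.2), Ier2 (38.7), Atf3 (29.6), Egr1 (4.60), Dusp1 (4.07) and Fosb (2.75). Fos overlapped both Klf4 and Zfp36 there, and Jun, Ier2 and Atf3 overlapped each neighbour in turn, as did Egr1, Dusp1 and Fosb. Ier2 thus stood above Jun in every PBS library, and in Candida albicans replicate 3 but not in replicates 1 and 2.

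The balance of AP-1 subunits also varied from library to library. The level of Junb over that of Jun, both in CPM per kilobase, was 1.81, 3.97 and 3.83 for the PBS replicates 1 to 3, and for those with Candida albicans 1.94, 1.73 and 1.85, so PBS replicate 1 lay among the treated libraries. The level of Fos over that of Jun was 2.19, 4.81 and 2.88 in PBS and 2.54, 4.74 and 1.61 with Candida albicans, with replicate 2 highest in both groups and the groups overlapping.

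Other early response genes were evenly divided in direction, where 39.5% of all genes were positive. Of 34 tested genes in a list of further early response genes, 17 had a positive and 17 a negative log2 fold change (median 0.01). At an unadjusted p under 0.05, 8 were higher and 4 lower, where 13.4% of all genes were higher and 16.2% lower. Of the 34, 0 passed the adjusted threshold. In 11 of them every Candida albicans library was above every PBS library, where 17.6% of all genes were separated in that direction. In 3 every treated library was below, where 18.1% of all genes were. Btg2, an antiproliferative gene, had 97.3 ± 41.4 CPM in the PBS libraries and 217 ± 16.4 CPM in the treated ones (a log2 change of 1.16, SE 0.29), and Rhob, a small GTPase gene, 116 ± 42.9 and 239 ± 39.1 CPM (1.05, SE 0.28). Tnfaip3, an inhibitor of NF-kappa B signalling, had 0.63 (SE 0.18), and the Polo-like kinase gene Plk2 was on the other side at -1.21 (SE 0.25). The adjusted p was 0.078 to 0.098 for these 4.

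Further AP-1 and related leucine zipper genes were divided, with 7 positive and 10 negative log2 fold changes among 17 tested (median -0.03). At an unadjusted p under 0.05, 2 were higher and 2 lower. Over all genes 39.5% were positive, and 13.4% were higher and 16.2% lower at that p. Fosl2, a Fos family subunit, had 357, 198 and 172 CPM in PBS replicates 1 to 3 and 528, 556 and 526 CPM in Candida albicans replicates 1 to 3. Every treated library was above every PBS library, and the treated libraries lay close together, in contrast to Fos and Fosb. Its log2 fold change was 1.15 (SE 0.29, adjusted p 0.085). Atf6 had 0.48 (SE 0.11), Batf2 -0.90 (SE 0.31) and Atf5 -0.57 (SE 0.21).

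Genes around the same pathway gave the following counts at an unadjusted p under 0.05, with 0 past the adjusted threshold in each list. Of all genes, 13.4% were higher and 16.2% lower at that p. Of 35 genes of the MAP kinase cascade, serum response factor and epidermal growth factor family, 6 were higher and 1 lower (median 0.13), with the receptor genes Erbb3 at 0.92 (SE 0.21) and Erbb2 at 0.54 (SE 0.16). Of 17 other dual specificity phosphatase and Sprouty or Spred feedback genes, 2 were higher and 2 lower (median 0.06), with Dusp16 at 0.93 (SE 0.19) and Spry1 at -0.65 (SE 0.21). Of 11 other Kruppel-like and EGR cofactor genes, 2 were higher and 1 lower (median 0.19), with Klf3 at 0.53 (SE 0.15) and the EGR corepressor gene Nab2 at 0.95 (SE 0.31). The last list held 10 genes: the Zfp36 family, the CCR4-NOT deadenylase, through which tristetraprolin acts, and Elavl1, which belongs to neither. Of these, 1 was higher, Cnot1 at 0.30 (SE 0.11), and 1 lower, Elavl1 at -0.38 (SE 0.14), with a median of -0.03.

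Heat shock genes, which like the immediate early genes are known to respond to handling of tissue, lay mostly on the other side. Of 15 tested, 13 were negative in log2 fold change (median -0.59). The median of all genes was -0.16, and 39.5% of all genes were positive. The 2 positive heat shock genes were Dnajb1 at 0.32 (SE 0.15) and Dnaja1 at 0.27 (SE 0.18). At an unadjusted p under 0.05, 6 of the 15 were lower and 0 higher, where 16.2% and 13.4% of all genes were. Hsp90aa1 had a mean of 145 ± 28.8 CPM in the PBS libraries against 86.5 ± 10.8 CPM in the treated ones (a log2 change of -0.74, SE 0.18, adjusted p 0.082), and Hsph1, Hsp90ab1 and the heat shock factor gene Hsf1 had -0.80, -0.62 and -0.59. The part of tissue handling in the levels of the 10 genes was not tested.

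**Figure D4:**
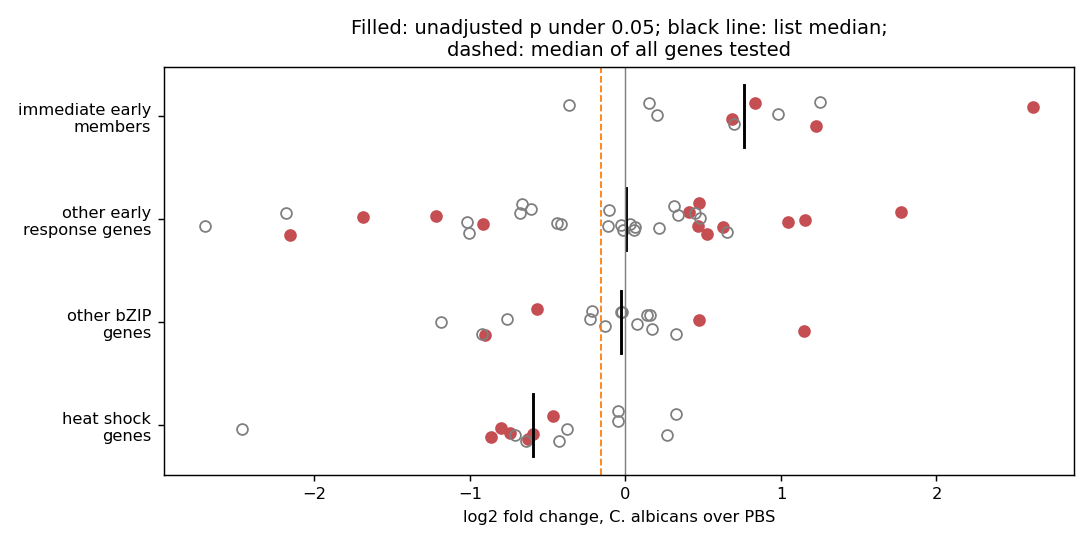
Log2 fold change, Candida albicans over PBS, of every tested gene of 4 lists (filled: unadjusted p under 0.05; black line: list median; dashed line: median of all genes tested; vertical jitter has no meaning). The list medians are 0.77 for the 10 immediate early genes, 0.01 for other early response genes, -0.03 for other AP-1 and leucine zipper genes and -0.59 for heat shock genes.

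Markers of the villus tip shared part of the order of libraries seen in the 10 genes. The villus tip is the end of the enterocyte's path out of the crypt. All 9 of its markers had a positive log2 fold change, where 39.5% of all genes did. At an unadjusted p under 0.05, 0 of the 9 were higher, where 13.4% of all genes were. The markers' summed level without Klf4, which is in both lists, was 7397, 4351 and 1668 CPM in PBS replicates 1 to 3 and 11452, 10740 and 6389 CPM in Candida albicans replicates 1 to 3. PBS replicate 3 was the lowest library here as in the mean of the 10 genes, and Candida albicans replicate 3 again fell within the PBS range. The highest was Candida albicans replicate 1, where in that mean it was replicate 2. Not every marker followed the sum: Slc28a2 (696 CPM) and Nt5e (241 CPM) were highest in PBS replicate 1. None of the 9 was at 0 in any library. General epithelial markers summed to 15663, 21452 and 13104 CPM in PBS replicates 1 to 3 and 21887, 22985 and 19871 CPM in Candida albicans replicates 1 to 3. There too PBS replicate 3 was the lowest, and Candida albicans replicate 2 was the highest. Krt20 counts in both this sum and that of the villus tip. Smooth muscle markers did not follow the same order: the mean log2 CPM of 10 markers was 8.46, 4.56 and 7.43 over the PBS libraries against 6.47, 1.62 and 0.17 over the treated ones. The share of counts from mitochondrially encoded genes was 6.77%, 5.89% and 8.92% in PBS and 3.19%, 3.93% and 4.63% with Candida albicans, with no overlap. The part of the villus tip markers and the mitochondrial share in the result was not tested. When the smooth muscle score was a covariate, the log2 fold changes of Jun, Junb and Zfp36 were 1.68, 0.81 and 0.84, and 0 of the 10 passed the adjusted threshold.

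Markers of other cell types were counted in both groups. Fibroblast markers summed to 101 to 715 CPM in PBS and 11.3 to 175 CPM with Candida albicans, and all 8 were lower in mean in the treated group. Endothelial markers summed to 24.0 to 46.3 and 11.6 to 27.5 CPM, lymphocyte markers to 76.9 to 194 and 78.4 to 236 CPM, myeloid markers to 42.4 to 102 and 36.3 to 98.4 CPM, and enteric neuron and glia markers to 12.4 to 71.4 and 19.4 to 42.1 CPM. Goblet cell markers, which bear on Klf4, summed to 6413 to 9826 CPM in PBS and 8791 to 12257 CPM with Candida albicans. Among the treated libraries the order of these sums was the reverse of that of Klf4. The markers were divided in direction, with 5 of the 9 lower in mean after the yeast, Spink4 (485 and 209 CPM) among them. The 4 higher ones included Fcgbp (1861 and 3456 CPM) and Zg16 (1225 and 2387 CPM). The median log2 fold change of the 9 was -0.18.

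**Figure D5:**
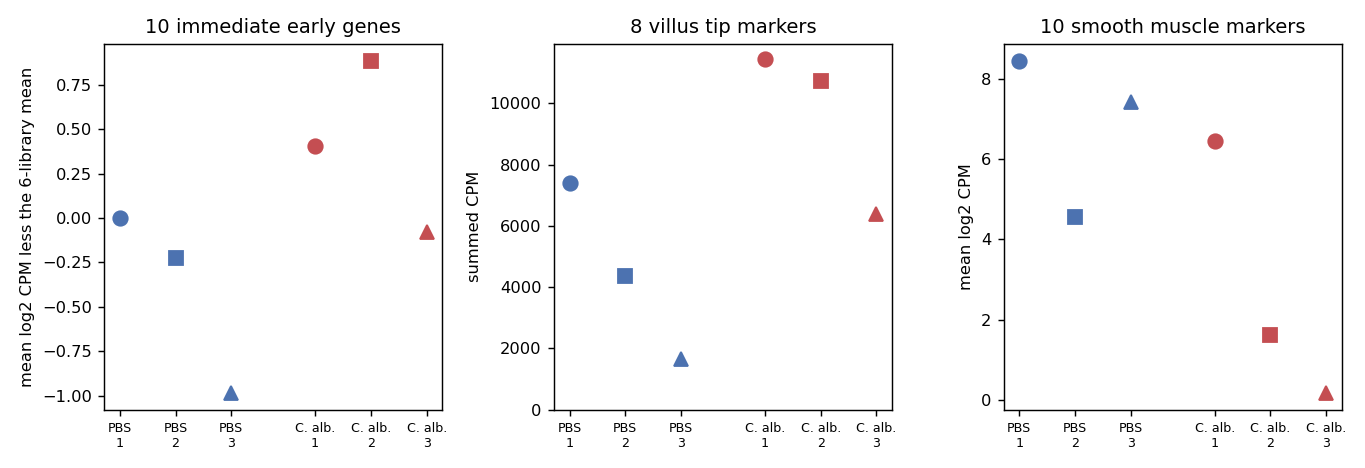
Values of each library for the mean deviation of the 10 immediate early genes (log2 CPM less the mean of 6 libraries), the summed CPM of 8 villus tip markers without Klf4, and the mean log2 CPM of 10 smooth muscle markers. PBS replicate 3 is lowest in the left and middle panels, and Candida albicans replicate 3, at 0.17, in the right one.

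The genes with the most similar course over the 6 libraries were sought among 10005 genes of 5 CPM or more, by the root mean square difference between a gene's centred log2 CPM and the mean centred profile of the 10. The median difference over those genes was 0.63. Rhou was nearest at 0.13, with 114, 113 and 63.8 CPM in PBS replicates 1 to 3 and 189, 202 and 114 CPM in Candida albicans replicates 1 to 3. Tnks1bp1 (0.14), Cyb5r3 (0.17), Elmsan1 (0.18), Bach1 (0.18), Serpinb1a (0.18), Smad7 (0.18) and Sar1b (0.18) followed. Of the 10 themselves, Klf4 (0.21), Zfp36 (0.24) and Atf3 (0.25) were nearest to their mean profile, and Fosb (1.08), Ier2 (0.79) and Egr1 (0.67) farthest.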

How the data were processed

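Raw read counts per Ensembl gene were deposited, as whole numbers with 1 column per library. The submitters' processing notes list mm10 as the build, and as tools HISAT2 2.2.1, featureCounts 2.0.1 and Trim Galore 0.6.7. Settings, strandedness and annotation release were not given in the sources used here.

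Testing used edgeR's (version 4.0.16, R 4.3.3) quasi-likelihood test (glmQLFit, robust=TRUE), two-sided, of Candida albicans against PBS without covariates, after filterByExpr (counts of 10, totals of 15) and TMM scaling. Adjustment was Benjamini-Hochberg's over the 16313 genes tested, with a threshold of 0.05. Standard errors come from the F statistic, and log2 CPM uses a prior count of 2. The procedure was tested on simulated data. With the spread between libraries estimated from these data, it called 3.12% of genes given a 2-fold change and 52.1% of those given a 4-fold change. Of genes given no change it called 0.0764%. A count of 0 called therefore does not show that levels were equal.

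Alternatives were other scalings, DESeq2 1.42.0, limma-voom (limma 3.58.1) with and without quality weights, other count filters, robust=FALSE, a smooth muscle covariate, blocking on the replicate number, and leaving out libraries. A gene with 0 counts could have up to 0.113 to 0.148 CPM (3 counts, from counting alone). Every pair of libraries differed by more than sampling noise, with a chi-square per degree of freedom of at least 36.5.

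The 10 genes, the lists, the tests and the alternatives were chosen with earlier results of these data known. All 10 are named. From each list the genes named are among the 4 of lowest p that reach 5 CPM in the higher group. Cell type markers and the 2 heat shock genes of positive change are named outside this rule. The 8 of most similar profile are given.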

Additional observations from a re-analysis of the deposited data

How the results depend on the processing

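Over all genes, edgeR called 0 with all 6 libraries and with DESeq2 size factors or robust=FALSE, and limma-voom called 0. It called 3 under upper quartile scaling, 188 under library totals only, 552 with no count filter, 43 over genes averaging 5 CPM and 42 with the smooth muscle covariate. The DESeq2 Wald test called 2911 and limma-voom with quality weights 2569. Leaving out 1 library in turn gave 0 to 2620, the highest without PBS replicate 1, and leaving out replicate 1 of both groups gave 2110. Of the 10 immediate early genes, the DESeq2 Wald test called 4, limma-voom with quality weights 3 (Jun, Junb and Zfp36) and edgeR without replicate 1 of both groups 1 (Jun). Leaving out 1 library gave 0 to 3, and the other alternatives 0 apart from the block. With the replicate number as a block edgeR called 2080 genes and 3 of the 10 (Fos, Junb and Zfp36). The numbers are not shown to pair the libraries: deviations from the group means correlated at 0.58, 0.36 and 0.05 for numbers 1 to 3, and Candida albicans replicate 3 correlated best with PBS replicate 2. All genes together had a median of -0.16 with TMM, which other scalings moved to -0.08 (DESeq2 size factors), -0.20 (upper quartile) and -0.45 (library totals only), and with the last the median of the 10 was 0.50. Of genes at an unadjusted p under 0.05, 45.2% were higher under TMM and 13.8% under library totals only, where 7 of the 10 were positive, and 2 were higher and 1 lower at that p. Egr1 turned to -0.13 under library totals only, -0.44 with the smooth muscle covariate, -0.031 without PBS replicate 3 and -0.60 without Candida albicans replicate 2 (0.86 without PBS replicate 2), and Dusp1 to -0.067 under library totals only. The other 8 kept their sign under all 18 alternatives. The causes were not tested.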
